A study of Mus musculus with 2 samples.

Results

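STAT5 peaks that lay in noncoding genes and pseudogenes are described here: 525 of the 5901 deposited peaks on assembled chromosomes (8.9%, exact 95% interval 8.18 to 9.65). A peak belonged to them when its midpoint was outside every protein-coding gene, more than 1 kb from the ends of such genes, and inside a gene of another type in RefSeq's annotation of mouse assembly GRCm38.p6 (the coordinates of mm10). The choice used positions only. Long noncoding RNA (lncRNA) genes held 468 of them, antigen receptor genes 35, pseudogenes 20, a microRNA (miRNA) gene 1 and a miscellaneous RNA gene 1. The whole list, 5908 peaks, came from 1 STAT5 ChIP-seq library, and an input library of sonicated chromatin was sequenced beside it. Both libraries were made from lymph node cells of a leukemic mouse on the C57BL/6 background that carried the Stat5b-CA transgene, a constitutively active STAT5B, and was Blnk+/-, that is, lacked 1 working copy of the pre-B cell receptor adaptor gene Blnk. The labels name the cells a B cell progenitor leukemia. Suspended cells received 10 ng/mL of mouse IL7 for 30 minutes at 37 °C before fixation. The sources used here do not name the promoter that drives the transgene, nor say whether both libraries came from the same animal. No untreated, wild-type or STAT5-negative cells were analysed here, and peak positions hold no expression, so the labelled cell type could not be checked against markers.

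STAT5 proteins are transcription factors switched on by JAK kinases when a cytokine, for example IL7, binds its receptor. Its dimers bind a palindromic DNA element, TTC and GAA separated by 3 bases. In B cell progenitors IL7 signalling through STAT5 is known to sustain survival and growth. An lncRNA gene gives a long transcript without a protein product, and many lie near the genes or enhancers of their neighbourhood. Pseudogenes are copies of genes that have lost their function, and antigen receptor loci hold the V, D, J and C segments that B and T cells join into receptor genes.

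With 1 peak list and no replicates, no test of a difference was possible, and differences are given as values with exact 95% intervals. These cover counting error only. They are too narrow, because neighbouring peaks occur in groups and each was counted as a separate event. Read depth is unknown. The file gives no height or significance, and absence from the list means only that the unstated calling threshold was not passed.

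The sequences under these peaks could be read where a peak overlapped the start of an annotated transcript. RefSeq's table for GRCm38.p6 gives 300 bases around each start, 250 before it and 50 from it on, for 75.4% of lncRNA genes. Of the 525 peaks, 24 overlapped such a window, and all 24 windows belonged to lncRNA genes. The windows of Gm30948 and Gm30996, which share long runs of letters, overlapped peaks whose midpoints lay in Igh. Most of the 24 peaks were only partly inside the window, down to 17 bp for C920006O11Rik, and several midpoints lay outside it. A window without the element therefore does not show that its peak lacks it. The STAT element TTCNNNGAA, in which N is any base and which reads the same on both strands, occurred in 11 of these 24 windows (45.8%, 25.6 to 67.2). It occurred in 983 of 10594 lncRNA start windows without a peak (9.28%, 8.73 to 9.85) and in 8.35% of all 30770 windows. Windows of lncRNA genes overlapped by peaks of other classes held it in 31 of 84 cases (36.9%, 26.6 to 48.1), and protein-coding windows overlapped by any peak in 225 of 581 (38.7%, 34.7 to 42.8). The interval of the share at the peaks in noncoding genes overlapped those of the other peak-bearing starts and lay above that of lncRNA starts without a peak. The median GC content was 49.7% in the 24 windows and 48.3% in the lncRNA windows without a peak.

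**Figure D1:**
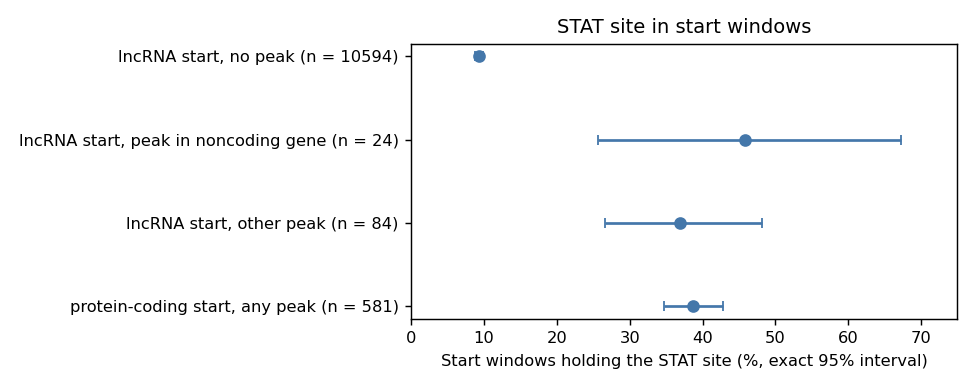
Percentage of 300-base transcript start windows that hold TTCNNNGAA (x axis, with exact 95% intervals as bars) in 4 sets of windows (y axis, with the number of windows). The 3 sets with a peak lie between 36.9% and 45.8%, and lncRNA starts without a peak lie at 9.28%.

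The 12 elements found in those 11 windows are shown with up to 20 bases on each side, cut at the window's edge, to let their letters be compared. Each is printed 5′ to 3′ on the strand of its lncRNA, with the 9-base element in capitals. The peak at the Gm31619 start had its midpoint in another lncRNA gene, Gm11476.
Gm31812, chr1:52113862-52113910, minus strand: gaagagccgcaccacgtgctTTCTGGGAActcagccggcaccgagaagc
Gm31869, chr1:161767453-161767487, minus strand: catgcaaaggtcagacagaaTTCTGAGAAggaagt
D030045P18Rik, chr10:45807699-45807747, plus strand: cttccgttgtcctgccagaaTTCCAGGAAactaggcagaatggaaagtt
4930417O22Rik, chr11:101952292-101952340, plus strand: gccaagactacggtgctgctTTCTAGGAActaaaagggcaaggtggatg
Gm30296, chr12:102730498-102730546, plus strand: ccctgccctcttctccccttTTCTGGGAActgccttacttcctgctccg
C230035I16Rik, chr13:23430968-23430996, minus strand: atgaaagacggtaccgccagTTCTGGGAA
Gm36738, chr15:78581548-78581596, minus strand: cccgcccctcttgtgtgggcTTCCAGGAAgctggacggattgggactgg
8430426J06Rik, chr15:81248146-81248194, minus strand: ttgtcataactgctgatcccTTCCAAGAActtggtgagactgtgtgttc
8430426J06Rik, chr15:81247999-81248047, minus strand: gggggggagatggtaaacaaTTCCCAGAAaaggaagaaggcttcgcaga
Gm29686, chr16:51987259-51987307, minus strand: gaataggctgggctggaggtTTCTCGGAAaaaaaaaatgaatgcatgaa
Gm52283, chr17:45626902-45626942, minus strand: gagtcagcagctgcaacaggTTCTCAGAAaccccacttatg
Gm31619, chr2:167589681-167589729, minus strand: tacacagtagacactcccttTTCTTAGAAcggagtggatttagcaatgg

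All 12 elements lay inside the peak. The overlap of peaks and windows came to 4011 bases, or 2.99 elements per kb (1.55 to 5.23), and the other 3189 bases of the same windows held 0 elements (up to 1.16 per kb). Over all windows the rate was 0.295 per kb. The elements lay a median of 22.5 bp from the peak midpoint, and 11 of 12 within 100 bp of it. The exception was 4930417O22Rik, at 311 bp in a peak of 929 bp. In 12 of 12 elements the fourth letter was C or T and the sixth A or G (73.5 to 100%), a form looked for after the elements were seen. This form made up 524 of 1046 elements (50.1%, 47 to 53.2) in lncRNA windows without a peak. It made up 25 of 34 (73.5%, 55.6 to 87.1) in lncRNA windows with other peaks. In protein-coding windows with a peak it made up 181 of 253 (71.5%, 65.6 to 77). The intervals of both these sets with peaks overlapped that of the 12 elements.

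Gm31812 and Gm29686 are shown in full because the element coincided with the annotated start of transcription: its first letter was the first transcribed base in both. The Gm31812 peak (chr1:52113631-52114100, 470 bp) stood 23rd in the deposited order, the earliest place of all 525. The Gm29686 peak lay 44 kb from Cblb, which encodes a ubiquitin ligase that restrains receptor signalling. The window of 2900024J01Rik is shown as a start with a peak, at place 372, and no element in these letters. The window covers 178 bp of that 496 bp peak and not its midpoint, so the rest of the peak was not read.
Gm31812, chr1:52113841-52114140, minus strand: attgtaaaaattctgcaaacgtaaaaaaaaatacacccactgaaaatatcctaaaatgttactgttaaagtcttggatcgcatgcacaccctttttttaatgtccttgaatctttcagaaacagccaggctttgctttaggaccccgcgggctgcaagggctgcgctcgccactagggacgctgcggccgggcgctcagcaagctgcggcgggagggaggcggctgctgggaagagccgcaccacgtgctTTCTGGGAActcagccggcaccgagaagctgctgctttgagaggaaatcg
Gm29686, chr16:51987238-51987537, minus strand: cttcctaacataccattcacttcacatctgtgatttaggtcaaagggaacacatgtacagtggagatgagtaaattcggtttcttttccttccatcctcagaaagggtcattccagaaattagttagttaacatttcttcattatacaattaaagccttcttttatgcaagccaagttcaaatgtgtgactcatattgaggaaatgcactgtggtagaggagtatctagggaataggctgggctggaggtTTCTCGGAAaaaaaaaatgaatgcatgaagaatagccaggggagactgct
2900024J01Rik, chr1:180777711-180778010, plus strand: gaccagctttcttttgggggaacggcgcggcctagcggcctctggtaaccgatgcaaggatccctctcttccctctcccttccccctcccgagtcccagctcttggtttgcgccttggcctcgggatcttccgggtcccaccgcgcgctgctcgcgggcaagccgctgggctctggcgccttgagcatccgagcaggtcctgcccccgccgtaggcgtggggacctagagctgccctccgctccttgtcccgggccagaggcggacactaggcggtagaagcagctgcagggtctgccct

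The protein-coding genes nearest to the other starts with an element were Fasl, Hace1, Sost, Gm20604, Abt1, Rac2, Mchr1, Capn11 and Ube2v1. The Gm31869 peak was 13.2 kb from Fasl, which encodes a death-inducing ligand of lymphocytes, and the Gm36738 peak 8.77 kb from Rac2, which encodes a small GTPase of blood cells. The peak at the Gm32249 start, whose window held no element, was 13323 bp from Ccr7, which encodes a lymph node homing receptor. These 3 were picked out after their positions were seen.

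By type of gene, lncRNA genes held most of the peaks and pseudogenes few for their length. Peaks per Mb were counted over the sequence that could hold one, that is, sequence in genes of the type, outside protein-coding genes and their 1 kb flanks. The density was 2.71 per Mb in lncRNA genes (2.47 to 2.97, 172.8 Mb), 4.38 in antigen receptor genes (3.1 to 6.02, 8.67 Mb) and 0.742 in pseudogenes (0.453 to 1.15, 27 Mb). Intergenic sequence held 1865 peaks at 1.35 per Mb (1.29 to 1.41). The lncRNA density was 2.01 times the intergenic one (1.81 to 2.23), the antigen receptor density 3.25 times (2.29 to 4.47) and the pseudogene density 0.55 times (0.335 to 0.851). Chromosomes X and Y, which held few or no peaks, are included in these ratios. For all noncoding genes together the ratio was 1.86, and 1.68 on autosomes alone. The ratios by type were not recomputed on autosomes and may be lower there. Pseudogenes resemble the genes they copy, and how reads that match several places were placed is not known here. The pseudogene density is therefore uncertain, and it was not broken down by distance to protein-coding genes. Genes for small nucleolar, small nuclear, transfer and ribosomal RNAs held 0 peaks, but their sequence was short, 0.103 Mb or less for each type. Upper limits of 35.8 per Mb and more therefore apply, far above the densities of the other large types.

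**Figure D2:**
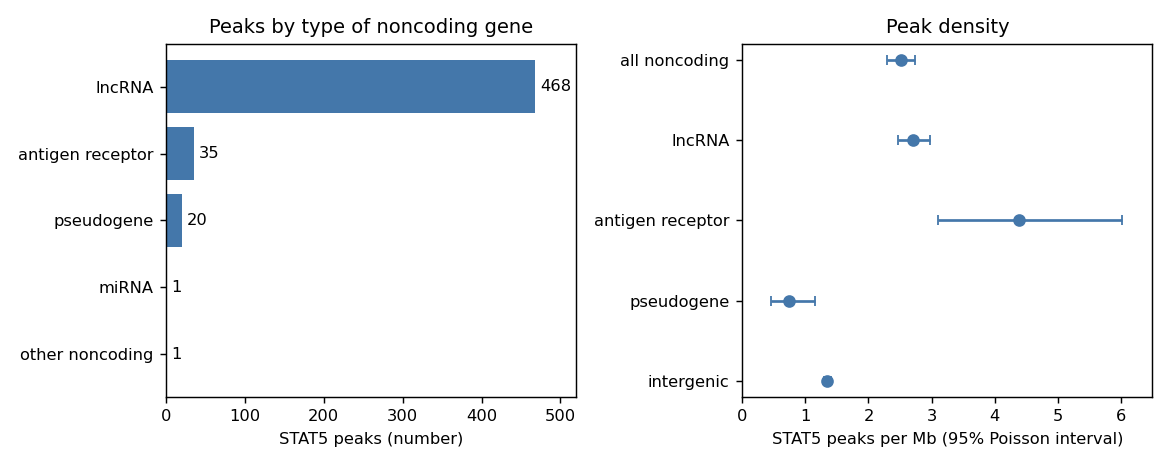
Left, number of STAT5 peaks (x axis) in each type of noncoding gene (y axis); right, peaks per Mb of eligible sequence (x axis) with exact 95% Poisson intervals as bars. lncRNA genes hold 468 peaks, and antigen receptor genes have 4.38 per Mb against 1.35 in intergenic sequence and 0.742 in pseudogenes.

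A small part of the annotated noncoding genes was marked. Of 20853 genes with any eligible sequence, 419 held a peak midpoint (2.01%). For lncRNA genes it was 384 of 9640 (3.98%), and for pseudogenes 20 of 8203 (0.244%). Marked lncRNA genes were longer, with a median of 18.6 kb against 9 kb for the others. Of the 2410 shortest lncRNA genes, up to 4.05 kb, 1.62% held a peak, and of the 2410 longest, from 21.4 kb, 6.76%. Per Mb the order was the opposite: the shortest had 7.72 peaks per Mb and the longest 1.79.

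Peaks inside lncRNA genes were densest near lncRNA starts. Within 1 kb of an annotated lncRNA start, lncRNA gene sequence held 64 peaks at 8.06 per Mb (6.21 to 10.3). The density was 4.11 per Mb (3.38 to 4.95) from 1 to 5 kb, 2.66 (2.22 to 3.17) from 5 to 20 kb and 1.33 (1.04 to 1.68) farther away. The nearest bin was thus 6.07 times as dense as the farthest (4.26 to 8.63). Where only sequence over 20 kb from any protein-coding gene end was counted, the 2 values were 5.47 (3.69 to 7.81) and 1.15 (0.871 to 1.5) per Mb, a ratio of 4.74 (2.94 to 7.52). Most peaks were nevertheless away from starts: of 371 lncRNA peaks whose own gene had a start in the table, 60 (16.2%, 12.6 to 20.3) had their midpoint within 1 kb of it, and the median distance was 5.75 kb.

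Distance to protein-coding genes also went with density. Peaks in noncoding genes lay a median of 34.5 kb from the nearest protein-coding gene end, with quartiles of 12.2 and 87.9 kb, and intergenic peaks 20.7 kb. At 1 to 5 kb, lncRNA genes held 4.21 peaks per Mb and intergenic sequence 3.44, a ratio whose interval included 1 (1.22, 0.878 to 1.66). The ratio was 1.66 (1.36 to 2.03) at 5 to 20 kb, 1.92 (1.57 to 2.34) at 20 to 50 kb, 2.27 (1.75 to 2.91) at 50 to 100 kb and 2.86 (2.21 to 3.67) beyond 100 kb, where the densities were 1.16 and 0.404 per Mb. Intergenic density dropped at each step, and lncRNA density stayed between 4.05 and 4.3 per Mb out to 50 kb. On the autosomes alone the 5 ratios were 1.17, 1.54, 1.69, 1.9 and 2.55.

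**Figure D3:**
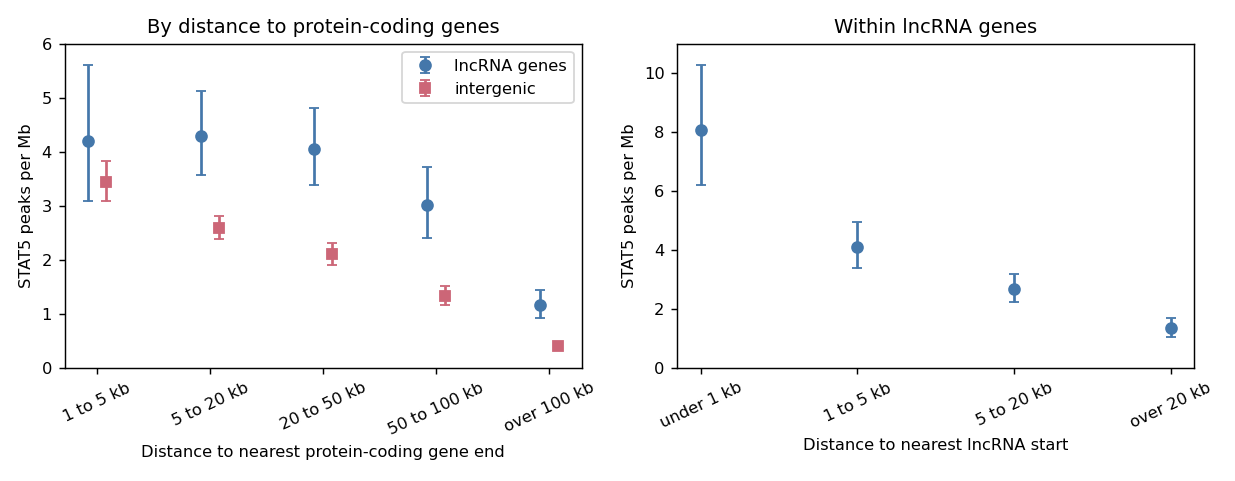
STAT5 peaks per Mb (y axes) with exact 95% Poisson intervals as bars, by distance to the nearest protein-coding gene end in lncRNA genes (circles) and intergenic sequence (squares) on the left, and by distance to the nearest lncRNA start on the right. Beyond 100 kb the values are 1.16 and 0.404, and lncRNA sequence goes from 8.06 per Mb under 1 kb from a start to 1.33 over 20 kb away.

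In their width the peaks resembled those elsewhere. Their median was 296 bp (quartiles 237 and 391), against 296 bp at protein-coding gene ends, 291 bp inside protein-coding genes and 299 bp in intergenic sequence. Of the 525, 61 (11.6%, 9.01 to 14.7) were 500 bp or wider, against 12.1% of intergenic peaks and 9.57% of those inside protein-coding genes. The first 2954 places of the deposited order, whose sorting key the sources used here do not state, held 51.8% of them (47.4 to 56.2) and 51.2% of intergenic peaks. Another peak lay within 5 kb of 27.4% (23.7 to 31.5), against 26% of intergenic peaks and 15.1% of those at protein-coding gene ends (12.9 to 17.6). Groups of at least 4 peaks within 50 kb took in 110 of the 525 (21%, 17.5 to 24.7), 19.8% of intergenic peaks and 9.15% of peaks at protein-coding gene ends (7.38 to 11.2). By autosome, the number ran from 10 on chromosome 18 to 46 on chromosome 12. Chromosome X held 0 in 7.98 Mb of eligible sequence, which allows up to 0.462 per Mb, and 44 peaks of other classes.

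Most marked lncRNA genes were models without a functional name. When each peak was given to the shortest gene that held it, 374 lncRNA genes were marked, of which 290 carried Gm or LOC numbers, 69 Rik names and 2 other clone names. The other 13, with 17 peaks, were Pvt1, Gad1os, Banf2os, Mirt1, Junos, Dleu2, Morrbid, Dgkeos, Sox1ot, Platr22, Snhg12, Platr11 and Lncpint. Of the 374 genes, 307 held 1 peak, 47 held 2 and 20 held 3 or more. Genes with 2 or more took in 161 of the 468 lncRNA peaks (34.4%). When noncoding genes with predicted-model names were left out, 62 peaks lay in a noncoding gene, and 29% of them in lncRNA genes.

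Gm31718 on chromosome 8 held the most, 7 peaks within its 103.7 kb (126804707 to 126908370). Their widths ran from 211 to 506 bp. The earliest in the deposited order, at place 143, lay at 126875534 to 126876016, 54889 bp from Tomm20, which encodes a subunit of the mitochondrial import receptor. All 7 lay in 1 group of 8 peaks that spanned 71.8 kb. The neighbouring gene Gm45805, to the left of Gm31718, had a peak of 500 bp (place 379) that overlapped its start window by 48 bp, on the transcribed side of the start, with Irf2bp2 as the nearest protein-coding gene, 164115 bp away.

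Gm17767 on chromosome 1 held 5 peaks in 2 sets. In one set 3 peaks lay 82008 to 86848 bp downstream of the nearest start of the gene, among them a peak of 717 bp at place 218. In the other set 2 peaks lay 4181 and 11581 bp from the start. Gm34907 on chromosome 14, with Scel as its nearest protein-coding gene, held 4 peaks within 23 kb. The first lay 655 bp and the last 16835 bp downstream of the annotated start nearest to each, and these were different starts.

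The other genes of the 10 with most peaks had 3 each. Gm33104 lay 85.6 to 93.6 kb from Ifngr1, which encodes a subunit of the interferon gamma receptor. The nearest protein-coding gene was Sema6d for Gm39920, Kmt2e for 5031425E22Rik, Katnal1 for Gm15411 and Qrsl1 for 1700027J07Rik. It could be far: the earliest peak of Gm39920 lay 104269 bp from Sema6d and that of 1700027J07Rik 113737 bp from Qrsl1. On chromosome 9, Gm46119 had Lipc as its nearest protein-coding gene, and its 3 peaks stood within 8713 to 10795 bp of a start. The 3 peaks of Gm27230, with Zfp280d as the nearest protein-coding gene, all came after place 2954. Further genes with 3 peaks were picked out after their positions were seen. Of these, Gm11963 lay near Xbp1, which encodes a factor of plasma cell differentiation, and Gm11725 stood in 1 group of 13 peaks whose nearest genes included Socs3, a feedback inhibitor gene.

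**Figure D4:**
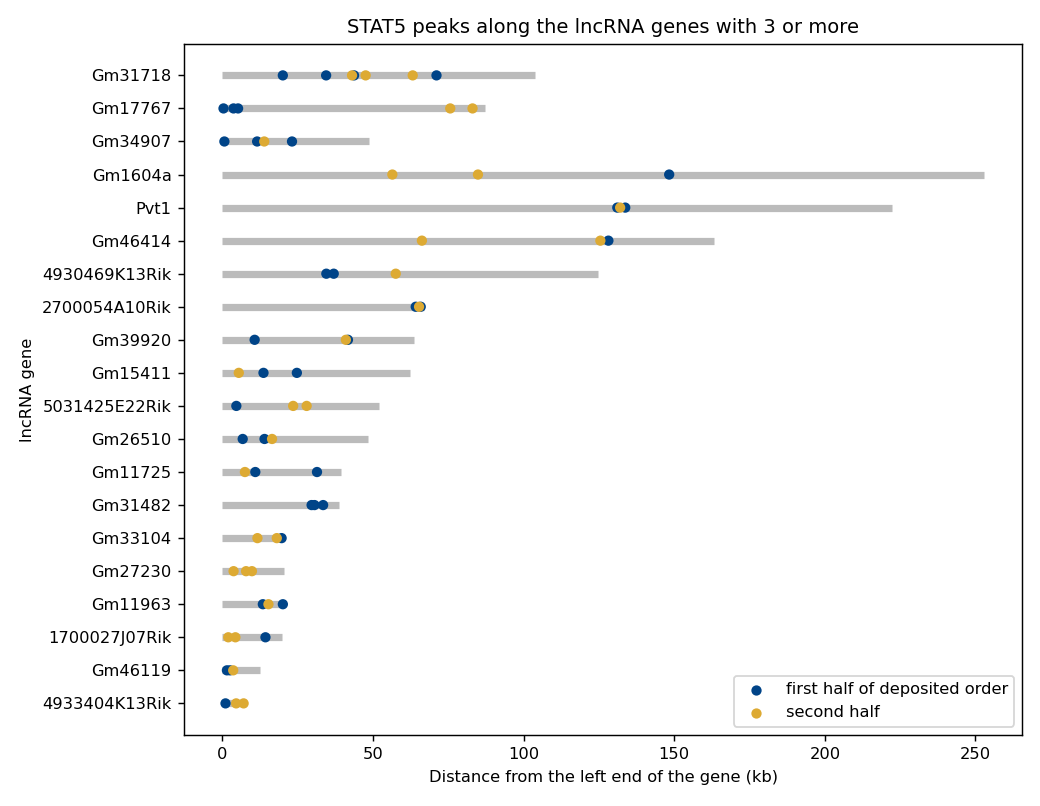
Peak midpoints (points) along the 20 lncRNA genes with 3 or more peaks (grey bars to scale, y axis), in kb from the left end of each gene (x axis); blue points belong to the first 2954 places of the deposited order and yellow ones to later places. Gm31718 has 7 peaks spread over much of its 103.7 kb, and the 3 of Pvt1 stand together.

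Among lncRNAs with known functions, Pvt1, Dleu2, Morrbid, Lncpint, Snhg12 and Trp53cor1 held a peak: 6 of the 53 listed regulatory lncRNAs with eligible sequence, where the share over all lncRNA genes was 3.98%. It was 6.76% among the 2410 longest lncRNA genes, from 21.4 kb, and Pvt1, Dleu2, Morrbid and Lncpint are longer than that. The list also holds genes of other RNA types, such as Rn7sk and Terc, so the 2 shares are not strictly alike. The list was written with earlier results of these data known. Pvt1, the neighbour of Myc, held 3 peaks close together. They lay at chr15:62168790-62169366 (577 bp, place 1588), chr15:62169917-62170131 (215 bp, place 4535) and chr15:62171443-62171981 (539 bp, place 2801), 178.7 to 181.4 kb from Myc. The Morrbid peak (chr2:128414603-128414969, place 1078) lay 14565 bp downstream of a start. Morrbid is an lncRNA known to restrain the cell death gene Bcl2l11 in short-lived myeloid cells. The Trp53cor1 peak (chr17:29057467-29057678) was also inside Gm41556, which held another peak with its midpoint 604 bp away. Trp53cor1 is known as lincRNA-p21, a target of p53. The Lncpint peak lay 91924 bp downstream of the gene's nearest start, at place 5211.

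Malat1, Neat1, Gas5, Xist and the other listed lncRNAs held no listed peak. An intergenic peak lay 512 bp from Malat1. The peak of C920006O11Rik, 243 bp wide, lay 435 bp from Rn7sk, the RNA that holds the elongation factor P-TEFb inactive. The Mirt1 peak on chromosome 19 was 725 bp wide at place 520, and the Junos peak, 54773 bp from Jun, stood at place 547. Junos lies on the plus strand beside Jun, which encodes a subunit of the AP-1 factor.

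Of 368 miRNA genes with eligible sequence, 0.0304 Mb in all, 1 held a peak midpoint, a density of 32.9 per Mb with an interval of 0.834 to 183.5. Mir7671 (chr11:53763597-53763654, minus strand, 58 bp) was that gene, in a peak of 340 bp (chr11:53763446-53763785). The nearest protein-coding gene was Irf1, an interferon-induced factor gene, 6399 bp away. A further 6 annotated miRNAs lay inside 5 lncRNA genes that held a peak, and the mature forms of Mir7671 are shown with the seed, bases 2 to 8, in capitals. Beside them stand the 3p form of Mir101a, whose hairpin lay nearest to a peak of its host, and the 5p forms of the Dleu2 pair, which have the same seed.
mmu-miR-7671-5p: aGGCUCCGcucuggcuagcuucc
mmu-miR-7671-3p: aAGCGGGCaggcggagaaccac
mmu-miR-101a-3p: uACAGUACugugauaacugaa
mmu-miR-15a-5p: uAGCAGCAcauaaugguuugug
mmu-miR-16-5p: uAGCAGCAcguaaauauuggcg

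The miR-15a and miR-16 forms share the seed AGCAGCA. Both are processed from the Dleu2 transcript and are known to act against the survival gene Bcl2. The Dleu2 peak (chr14:61680703-61681057, 355 bp, place 1662) lay 1493 bp from the gene's nearest start and 48.8 kb from the Mir15a hairpin. Mir101a lay 2.64 kb from the peak in its host E130102H24Rik. Of 56 listed lymphoid miRNA genes and hosts, 53 were matched and 38 had eligible sequence. Of these 38, Dleu2 held a peak, where the share over all noncoding genes was 2.01%. Intergenic peaks lay 563 bp from Mir23a, 2141 bp from Mir142, 3467 bp from Mir17 and 9869 bp from Mir155hg.

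The nearest protein-coding gene was a listed B lineage factor for 15 of the 525 peaks (2.86%, 1.61 to 4.67), against 40 of 1865 intergenic peaks (2.14%, 1.54 to 2.91). These 15 lay near 8 genes: Bcl11a and Foxo1 with 3 each, Bach2, Ets1 and Runx1 with 2 each, and Bcl6, Lef1 and Myb with 1 each. Bach2, a repressor that holds back plasma cell differentiation, had Gm42266 at 71.5 and 73.4 kb, the farther peak at place 139. Foxo1, which encodes an activator of early B cell genes, had Gm30125 at 21.9 kb and both peaks of Gm38537 near 118 kb. The peaks of Gm30530 lay farther, 365.3 and 367.5 kb from Runx1, which encodes a core blood cell factor. The first of them was 776 bp wide at place 116.

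A listed STAT5 target gene was the nearest for 10 of the peaks (1.9%, 0.917 to 3.47, against 1.77% of intergenic peaks). Pim1, a survival kinase gene, had 4 peaks in Gm36199 and Gm26885, from 1091 bp to 46.9 kb from the gene, in a group of 10 peaks over 115.8 kb. Myc had the 3 of Pvt1. Bcl6, which is on both lists, had Gm46545 at 87.9 kb. Ccnd2, a D-type cyclin gene, had 9330179D12Rik at 2.89 kb, and Socs2, a feedback inhibitor gene, had 5730420D15Rik at 7.38 kb. Genes of the JAK-STAT list accounted for 4 peaks (0.762%, 0.208 to 1.94, against 1.13% of intergenic peaks), among them the 3 of Gm33104 at Ifngr1. Over the 3 lists together, the share was 5.33% (3.57 to 7.62) and the intergenic share 4.93% (3.99 to 6.02), with overlapping intervals.

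Antigen receptor loci held 38 peaks, 35 of them counted above and 3 given to shorter lncRNA genes. Igk, the kappa light chain locus (chromosome 6, 67555636 to 70726754), held 14, or 4.41 per Mb (2.41 to 7.41). Igh, the heavy chain locus (chromosome 12, 113258768 to 116009954), held 12, or 4.38 per Mb (2.26 to 7.64). The T cell receptor loci held 5 at Tcra (2.82 per Mb, 0.917 to 6.59), 3 at Tcrb (5.25, 1.08 to 15.3) and 3 at Tcrg (16.8, 3.47 to 49.1), and the lambda light chain locus Igl 1. These intervals all overlapped, and the immunoglobulin loci together were not compared with the T cell receptor loci together. Segments of 1 locus resemble each other, and how reads that match several were placed is not known here, so single positions in these loci are uncertain.

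Over the 6 loci together, peaks were denser near V segments. Sequence within 1 kb of a V segment or V pseudosegment held 14 peaks at 11 per Mb, and the rest 24 at 3.25 per Mb, a ratio of 3.4 (1.63 to 6.85). All 14 lay in Igk (6), Igh (5) and Tcra (3). Igl, Tcrb and Tcrg had 0 near a V segment, in 0.0822 Mb or less of such sequence each, and 4.39, 6.13 and 18.4 per Mb elsewhere. The midpoint lay inside a segment for 6 peaks, among them those at Igkv9-123, Igkv2-112, Ighv9-2, Ighv1-62-1 and Trav13-5. The Igkv2-112 peak stood at place 545, and the earliest of the loci, at place 528 in Igk, lay 1240 bp from a V segment. Both the Igk and the Igh locus had most of their peaks in the V region. That region spans most of either locus, so this count does not by itself show a concentration there. At the constant end, 1 Igh peak (chr12:113427329-113427615, 287 bp) lay between Ighm and Ighj4, 1042 bp from Ighj4, in the interval known to hold the intronic heavy chain enhancer. In Igk, 1 peak (chr6:70725721-70726064, 344 bp) lay 543 bp from Igkc, between the last J segment, Igkj5, and the constant region.

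In the Tcrg locus, 1 peak of 679 bp lay 3335 bp from Trgc1 and 1 of 550 bp lay 2447 bp from Trgv4. STAT5 is known to open this locus downstream of the IL7 receptor in T cell precursors. In Tcra, 3 of the 5 peaks lay within 149 bp of a V segment, namely Trav15-1-dv6-1, Trav15-2-dv6-2 and Trav13-5, and the other two near the delta segment Trdd1. In Tcrb, 2 peaks lay near Trbv7 and 1 between Trbc2 and Trbv31.

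**Figure D5:**
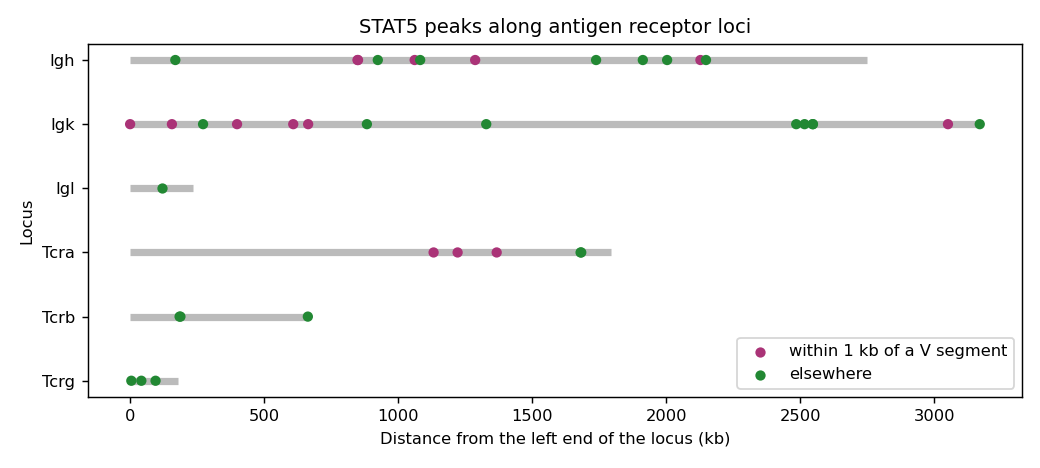
Peak midpoints (points) along 6 antigen receptor loci (grey bars to scale, y axis), in kb from the left end of each locus (x axis); purple points lie within 1 kb of a V segment and green points elsewhere. Igk has 14 and Igh 12 peaks, most of them in the V region, which spans most of either locus, and 14 of all 38 are within 1 kb of a V segment.

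Pseudogenes held 20 peaks, 1 per gene. The widest of the 5901 peaks on assembled chromosomes was among them, 3660 bp at chr17:39845074-39848733 (place 295). It covered the whole of Rn18s-rs5, a copy of the 18S ribosomal RNA sequence (39846354 to 39848202). The next widest pseudogene peak was 875 bp, in Gm18562 on chromosome 13 at place 248. Ribosomal RNA genes have many near-identical copies, so the assignment of reads to this one is uncertain. The other pseudogene peaks ran from 200 to 474 bp. In chromosome order the first 5 were Gm21909, Ptprv, Gm14267, Gm5855 and Zfp683, with widths of 236, 242, 292, 234 and 288 bp. The type is RefSeq's label, and whether each of these genes has lost its function was not checked. Gm14267 had Prex1 as its nearest protein-coding gene and Gm5855 had Lef1, at 179.7 kb. The pair Gm6610 and Gm8000 on chromosome 15 had Ly6e and Ly6i as their nearest protein-coding genes. The miscellaneous RNA gene with a peak was Gm8995 on chromosome 7 (516 bp, place 4318).

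The 5 earliest peaks of the deposited order lay in lncRNA genes: Gm31812 (place 23), Gm29709 (45), Gm46414 (57), Gm52283 (60) and Gm15518 (77). Of these, Gm31812, Gm52283 and Gm15518 had a peak that overlapped a start window. Gm29709 lay 46017 bp from Fos, which encodes a subunit of AP-1, and Gm46414 lay 71843 bp from S1pr3. After Rn18s-rs5, the widest peaks lay in Gm40237 (996 bp), 4930417O22Rik (929 bp), Gm12679 (917 bp) and 1700019J19Rik (915 bp). The Gm40237 peak had its midpoint 796 bp downstream of a start.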

How the data were processed

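There was 1 STAT5 ChIP-seq library and 1 input library. Per the labels' protocols, a 10-minute fixation in 1% formaldehyde preceded sonication, with fragments of about 200 bp. The deposited file holds start and end positions of peaks, with no count, score or height. Per the submitters' processing notes, the tools were MACS2, Picard and BWA 0.7.4 and the build mm10, with no roles stated. The sources used here do not give the calling threshold or the use of the input.

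Genes came from RefSeq (GRCm38.p6): 49599 of 49997 were kept, leaving out those without an assembled position or starting before 3 Mb on any chromosome but Y. A peak in several genes was given to the shortest. Densities used chromosomes from the first to the last protein-coding gene. Overlapping start windows of 1 gene counted once. Intervals were Clopper-Pearson or exact Poisson (scipy 1.17.1, numpy 2.4.6, pandas 2.3.3), and ratios used the exact conditional interval. Classes and lengths were tested on simulated positions.

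Members and lists were chosen with earlier results of these data known. Named genes were those of small biotypes with a peak, the 10 lncRNA genes and 5 pseudogenes with most peaks (ties in chromosome order), lncRNAs with given names, the 5 widest and 5 earliest peaks, list members, and, added later, start windows with a peak. The alternatives changed the overlap rule, flank, peak list, joining, gene names, chromosomes and biotype rule. The gene nearest to 1 of the peaks is not reported here.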

Additional observations from a re-analysis of the deposited data

Results flagged for a closer look

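Beyond the 5901 peaks analysed, 7 deposited peaks lay on contigs that are not part of an assembled chromosome, and they entered no value above.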

How the results depend on the processing

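Of 47 recomputed values, 34 stayed within the interval of the reported value (for counts, within 1.5 times). The number of peaks in noncoding genes, 525, became 268 among peaks of at least the median width, 272 in the first 2954 places of the deposited order and 62 with noncoding genes that have no predicted-model name. The genes holding a peak, 419, became 232, 240 and 33 under these settings. Fewer peaks or genes enter by construction. The lncRNA share of 89.1% became 29% without predicted-model names and 95.5% without antigen receptor genes, a setting added after the data were seen. The density relative to intergenic sequence, 1.86, became 2.06 with 5 kb kept from protein-coding gene ends and 1.68 on autosomes alone. The median width of 296 bp became 388.5 bp among the wider peaks, 365.5 bp in the first 2954 places and 309.5 bp with peaks closer than 5 kb joined. No paired analysis was possible because there was 1 library per group and 1 peak list. Depth is unknown and limits every statement on unmarked genes.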
